A study of Mus musculus with 6 samples.

Results

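The transcripts of the HSP70, HSP90, HSP60 and DNAJ chaperones were examined in heart muscle cells of mice given α-ketoglutarate (AKG), an intermediate of the tricarboxylic acid cycle, or saline. Members were the rows of the deposited table whose symbol begins with Hspa, Hsp90 or Dnaja, Dnajb or Dnajc and a number, together with Hsph1, Hspd1 and Hspe1. Pseudogene names were left out, which gave 64 of 22063 genes. By their known location, 33 were placed in the cytosol and nucleus, 13 in the endoplasmic reticulum (ER), 10 in the mitochondrion and 8 elsewhere. Each group held 3 libraries from wild-type (WT) mice. AKG mice received 300 mg per kg per day and Control mice received phosphate-buffered saline (PBS), in both groups by daily injection for 2 weeks, and postnatal day 21 (P21) was the age given. Cells were freed from the heart by Langendorff perfusion, and mRNA libraries were made from Trizol RNA. The study asked by which pathways AKG might act on the proliferation of these cells. The labels do not say whether a library held 1 mouse or a pool, so p-values measure only the spread between these libraries.

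HSP70 proteins bind stretches of unfolded protein and release them in a cycle driven by ATP. J-proteins of the DNAJ family bring the client and trigger ATP hydrolysis, nucleotide exchange factors reset the cycle, and HSP90 takes over many partly folded clients. Each compartment has its own set. Hspa8 serves the cytosol, Hspa5 (BiP) the ER lumen, and Hspa9 (mortalin) the mitochondrial matrix, where the chaperonin of Hspd1 (HSP60) and Hspe1 (HSP10) folds imported proteins. Heart muscle cells depend on this system for their sarcomeres and their many mitochondria. Heat shock factors act through the heat shock element, and the unfolded protein response of the ER acts through the ER stress element.

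Promoter sequences from RefSeq (GRCm38.p6, 250 bases before to 50 after each start site) were matched for 51 of the 64 members. Not searched were Hspa8, Hspa9, Hspa13, Hsp90aa1, Hsp90ab1, Dnajc2, Dnajc5, Dnajc5b, Dnajc11, Dnajc12, Dnajc18, Dnajc22 and Dnajc30. Promoter stretches are shown because they hold the elements by which chaperone genes are usually grouped. The heat shock element was searched as GAANNTTCNNGAA or TTCNNGAANNTTC, which between them cover both strands. It was found in 4 of the 51 members (7.84%) and in 0.662% of all 27025 genes in the table. The 4 were Hspd1, Hspe1, Hsph1 and Dnajb6. Hspa1a, Hspa1b and Dnajb1 were searched and held no match. Only elements of 3 intact units inside the window were counted, so a gene with no match may still hold an imperfect or more distant element. The ER stress element, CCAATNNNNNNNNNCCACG on either strand, was found in 3 members (5.88%) and in 0.137% of all genes. These were Hspa5, Hsp90b1 and Dnajc3. A related ER element, ATTGGNCCACG, was found in Dnajb11 among the members (1.96%) and in 0.0444% of all genes. The plain letters TATAAA, on either strand, were found in Dnajc19 and Dnajc24 (3.92%) and in 15.7% of all genes. The 2 heat shock forms are reverse complements and can overlap, and the ER elements share the letters CCACG. A match describes letters in this window and is not evidence of binding.

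The following stretches hold the matched elements in capitals, each read 5′ to 3′ on the strand of its gene. Hspd1 had more than 1 window, of which that at chr1:55088194-55088493 held no heat shock element. The start site of its other window lies head to head with that of Hspe1 on the opposite strand, 216 bases away. The windows of these start sites shared 285 bases and the same pair of overlapping heat shock elements. That stretch lies at chr1:55088053-55088082, the Hsph1 stretch at chr5:149636280-149636308 (minus strand, 15 bases after a start site) and the Dnajb6 stretch at chr5:29735844-29735872 (plus strand, 46 bases before a start site). The Hspa5 stretch lies at chr2:34772020-34772048 (plus strand, its element 65 bases before the start site) and that of Dnajb11 at chr16:22857843-22857871 (plus strand, 7 bases after the start site).
Hspe1 and Hspd1 (shown on the Hspe1 strand): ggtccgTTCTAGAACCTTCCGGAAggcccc
Hsph1: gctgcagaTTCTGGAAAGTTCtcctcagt
Dnajb6: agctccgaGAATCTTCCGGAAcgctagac
Hspa5: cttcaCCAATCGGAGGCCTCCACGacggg
Dnajb11: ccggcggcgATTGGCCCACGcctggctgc

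Longer stretches are given for Hsp90b1 and Dnajc3, ER members that moved in opposite directions in the main test, as shown further on. Neither call held under every processing alternative, and the sign of Hsp90b1 turned under some of them. The Hsp90b1 stretch (chr10:86705510-86705694, minus strand) has an element 212 bases before the start site and another, on the reverse strand, 107 bases before it. The Dnajc3 stretch (chr14:118937682-118937931, plus strand) has its element 105 bases before the start site. Bases inside an annotated exon were left out of both.
Hsp90b1: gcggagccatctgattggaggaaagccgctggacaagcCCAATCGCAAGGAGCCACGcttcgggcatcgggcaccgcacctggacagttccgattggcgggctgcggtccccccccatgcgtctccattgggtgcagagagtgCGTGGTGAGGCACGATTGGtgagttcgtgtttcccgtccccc
Dnajc3: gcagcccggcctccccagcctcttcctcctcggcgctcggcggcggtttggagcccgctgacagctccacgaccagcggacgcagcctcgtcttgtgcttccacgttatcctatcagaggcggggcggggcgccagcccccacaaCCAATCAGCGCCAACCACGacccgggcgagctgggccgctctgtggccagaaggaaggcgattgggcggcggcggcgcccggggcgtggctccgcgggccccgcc

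Libraries held 14402876 to 17797368 counts. Levels below are CPM, counts scaled to a common library size after TMM normalization, so they compare a gene between libraries and not genes with each other. The median log2 change over all tested genes was 0.00 on this scale. Scaling by total counts instead moved that median to 0.45, a shift that applied to every gene alike. Some libraries stood apart from their group. Summed atrial transcripts (5 genes) were 6.40 to 12 CPM in Control, 359 CPM in AKG 1, 7.58 CPM in AKG 2 and 220 CPM in AKG 3. Summed Y-linked transcripts were 0.311 CPM in Control 2 and 39.0 to 176 CPM in the other libraries. Of 12 markers of heart muscle cells, 10 fell (83.3%, against 25.2% of all tested genes) and none rose. Their sum was 76699 to 83478 CPM in Control and 37266 to 41293 CPM after AKG. The labelled cell type thus showed its defining markers in every library. In such bulk samples, fewer cells of a type and less RNA per cell cannot be told apart. The part of any of these in the chaperone results was not tested, except for the atrial and Y-linked levels, which were tried as covariates.

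Chaperone transcripts fell more often than they rose after AKG, and the mitochondrial members fell almost as a set. Of the 64 members, 57 had enough counts to be tested, 26 fell (45.6%), 7 rose (12.3%) and 24 did not pass the test (edgeR's quasi-likelihood test, adjusted p under 0.05). Over all 13117 tested genes, 25.0% rose and 25.2% fell. The 57 log2 fold changes ran from -1.18 to 0.66 with a median of -0.25. Their median turned to 0.20 with total counts as scaling, against 0.45 for all genes, and 21 members then rose and 12 fell. Among the added rises were Dnajb1 (0.33), Hspa4l (0.36), Dnajc10 (0.45), Dnajc5 (0.48), Dnajc7 (0.49) and Dnajb9 (0.50), none of which passed with TMM scaling. Hspa4, which fell with TMM scaling, then passed as higher (0.23). The groups did not overlap in 38 members (29 lower and 9 higher after AKG), or 66.7% of those tested, against 59.2% of all tested genes. A fall of at least 2-fold was seen in 4 of the 57 tested members, against 803 of all 13117 tested genes (6.12%). A rise of that size was seen in 0 members and in 616 genes (4.7%). Falls of that size were thus about as frequent among members as among all genes. The rising count was 4 without Control 1 and 4 without Control 3. The 7 members not tested were Dnajb3, Dnajb7, Dnajb8, Dnajc5b, Dnajc5g, Dnajc6 and Dnajc22, of which Dnajb8, Dnajc5b and Dnajc5g had 0 counts in every library.

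In the cytosol and nucleus, 13 of 30 tested members fell (43.3%) and 3 rose, with a median log2 change of -0.25 (0.20 with total counts as scaling). In the ER, 4 of 13 fell (30.8%) and 3 rose (23.1%), with a median of 0.05. Both ER shares were near the 25.2% and 25.0% of all tested genes. In the mitochondrion, 9 of 10 fell (90%) and 0 rose, with a median of -0.87. Elsewhere, 1 of 4 rose (25%, the share of all tested genes) and 0 fell. Summed over all its members, the cytosolic class was at 3328 ± 76.5 CPM in Control and 3382 ± 33.1 CPM after AKG (SD, n = 3). The ER class went from 859 ± 32.3 to 667 ± 50.7 CPM and the mitochondrial class from 893 ± 29.3 to 537 ± 45.0 CPM. As a share of all counts, the cytosolic class was 0.270 to 0.304% in Control and 0.380 to 0.415% after AKG. On that scale the groups overlapped for the ER class (0.0695 to 0.0770% and 0.0686 to 0.0872%). They also overlapped for the mitochondrial class (0.0715 to 0.0817% and 0.0576 to 0.0718%). No test of the difference between compartments was made, since the classes were drawn up with earlier results of these data known. The number of cytosolic members that fell was 7 without Control 3 and 8 without AKG 1, while the mitochondrial number was 9 without any single library and 7 with total counts as scaling.

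**Figure D1:**
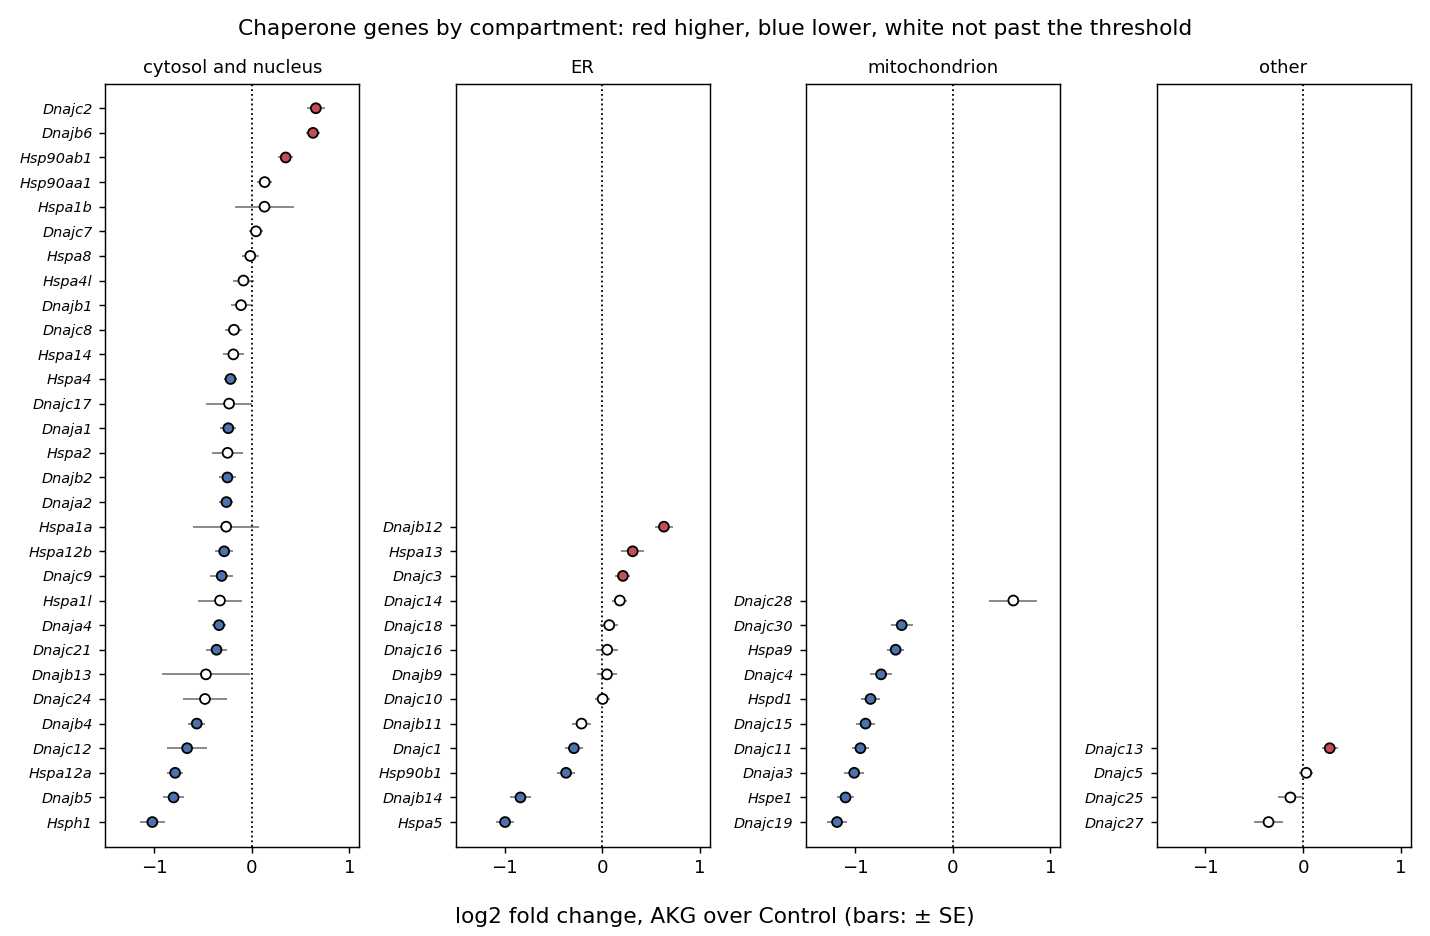
Each point is 1 tested member, placed by its log2 fold change of AKG over Control (horizontal axis, bars ± SE) in its compartment; the dotted line is the median of all tested genes, 0.00. Of the 10 mitochondrial members 9 lie at -0.52 or below, whereas ER members lie on both sides of 0; with total counts as scaling all points would move right by about 0.45.

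Per transcript length, Hspa8 and Hsp90ab1 were the most abundant members in both groups. In Control, Hspa8 was at 506 ± 31.2 FPKM (fragments scaled to transcript length and library size, SD, n = 3) and Hsp90ab1 at 261 ± 16.2 FPKM. Next came Hspa9 at 95.6 ± 7.86, Hspa5 at 95.1 ± 5.94 and Hspd1 at 83.6 ± 7.84 FPKM, of which Hspa9 and Hspa5 differed by less than their SD. Hsp90b1 followed at 71.5 ± 5.22 FPKM and Dnajc7 at 61.4 ± 3.99 FPKM. The stress-inducible Hspa1a and Hspa1b were at 1.1 ± 0.299 and 0.719 ± 0.266 FPKM. After AKG the order of the leading pair was the same, with Hspa8 at 646 ± 29.2 and Hsp90ab1 at 452 ± 29.9 FPKM. Hspa9 was then at 86.9 ± 11.3, Dnajc7 at 85.1 ± 1.43 and Hsp90b1 at 75.5 ± 12.5 FPKM, whose spreads overlapped, and Hspd1 was at 66.7 ± 13.4 and Hspa5 at 64.6 ± 9.37 FPKM. These FPKM carry the shift of total-count scaling, so they order genes within a group and are not set against each other across groups.

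Hspa8, the constitutive cytosolic HSP70, did not pass the test. It was at 1260, 1329 and 1349 CPM in Control 1, 2 and 3 and at 1239, 1335 and 1323 CPM in AKG 1, 2 and 3. The groups overlapped almost fully (log2 change -0.015, SE 0.085, adjusted p 0.896), and with total counts as scaling it was 0.43 higher (adjusted p 0.000800), next to the 0.45 of all genes. In annotated transcripts, 41.3% of the 75-base windows of Hspa8 also occurred in 13 other genes, so its count depends on how shared reads were assigned.

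The inducible pair Hspa1a and Hspa1b, which heat and proteotoxic stress raise strongly, stayed at a few CPM. Hspa1a was at 5.10, 2.86 and 3.46 CPM in Control and at 4.95, 2.48 and 2.05 CPM after AKG. Hspa1b was at 3.47, 1.68 and 1.99 CPM and at 3.09, 2.48 and 2.22 CPM. Both ranges overlapped between groups (adjusted p 0.549 and 0.742), and library 1 of each group held the highest level of both genes. They share 52.7% of the windows of Hspa1a with each other and cannot be separated with confidence.

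Among the exchange factors of cytosolic HSP70, Hsph1 (HSP110) showed a 2.03-fold decrease. It was at 21.6, 22.0 and 21.7 CPM in Control and at 8.99, 10.3 and 12.9 CPM after AKG, so that every AKG library lay far below every Control library. The log2 change was -1.02 (SE 0.13, adjusted p 2.42e-05, edgeR's quasi-likelihood test). Hspa4, of the same family, moved less. It fell by 0.22 on the log2 scale (SE 0.069, adjusted p 0.0173), from 110 ± 1.2 to 94.4 ± 3.43 CPM, and its call was lost without Control 1, Control 2 or AKG 1 (adjusted p 0.0558, 0.0619 and 0.0581) and with the atrial covariate (log2 change -0.23, adjusted p 0.0934). With total counts as scaling Hspa4 passed as higher instead (0.23, adjusted p 0.0355), where the median of all genes was 0.45. Hspa4l was at 35.6 ± 3.75 CPM in Control and 33.6 ± 3.57 CPM after AKG (adjusted p 0.524).

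The distant HSP70 relatives Hspa12a and Hspa12b were both lower. Hspa12a was at 57.8, 57.0 and 51.2 CPM in Control and at 34.0, 30.7 and 31.7 CPM after AKG, with no overlap. Its log2 change was -0.78 (SE 0.084, adjusted p 5.49e-06). Hspa12b, known from endothelial cells, was at 71.9, 76.0 and 76.9 CPM and at 57.6, 71.8 and 55.6 CPM, so that AKG 2 lay just under the lowest Control library (log2 change -0.28, adjusted p 0.0228). The call of Hspa12b was lost with the atrial covariate (log2 change -0.07, adjusted p 0.625) and without Control 2, Control 3, AKG 1 or AKG 3 (adjusted p 0.0642 to 0.0792), and its sign turned with total counts as scaling (0.16). Of 10 endothelial markers, 3 rose (30%) and 3 fell (30%), against 25.0% and 25.2% of all tested genes.

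Of the cytosolic HSP90 genes, Hsp90ab1 rose and Hsp90aa1 did not pass the test. Hsp90ab1, the constitutive form and the most abundant member after Hspa8, was at 758, 777 and 763 CPM in Control and at 999, 943 and 983 CPM after AKG. The groups were well apart, and the rise was 1.27-fold (log2 change 0.35, SE 0.080, adjusted p 0.00252). Hsp90aa1, the stress-inducible form, was at 113, 115 and 108 CPM and at 120, 116 and 131 CPM. Every AKG library of Hsp90aa1 lay above every Control library, but the difference did not pass the test (log2 change 0.13, SE 0.074, adjusted p 0.152). It did pass with total counts as scaling (0.58, adjusted p 8.09e-05) and with both FPKM fits (0.54 and 0.56, adjusted p 0.000618 and 0.000633). Of the windows of Hsp90aa1, 53.1% occurred in other genes, against 0.736% for Hsp90ab1.

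J-proteins of the cytosol moved in both directions. Dnajb6, which suppresses aggregation, sits at the Z-disc and is mutated in a limb-girdle muscular dystrophy, rose. It was at 51.7, 55.2 and 53.6 CPM in Control and at 78.4, 85.4 and 84.1 CPM after AKG, a 1.54-fold rise with no overlap (log2 change 0.63, SE 0.072, adjusted p 1.05e-05). Of its windows, 39.5% occurred in 9 other genes. Dnajc2, which acts at the ribosome on nascent chains, was at 17.8, 17.6 and 17.5 CPM and at 29.3, 26.6 and 27.5 CPM. The Control libraries lay close together and all AKG libraries above them, a 1.58-fold rise (log2 change 0.66, SE 0.092, adjusted p 5.55e-05).

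Dnajb5 and Dnajb4, relatives of the classical HSP40, fell. Dnajb5 was at 54.6, 58.8 and 71.4 CPM in Control and at 38.4, 36.3 and 31.4 CPM after AKG, with no overlap (log2 change -0.80, SE 0.11, adjusted p 5.78e-05). Dnajb4 fell by 0.56 on the log2 scale (SE 0.088, adjusted p 0.000143), from 46.5 ± 2.06 to 31.5 ± 2.63 CPM, a call lost with total counts as scaling (log2 change -0.12, adjusted p 0.353). Dnajb1, the classical HSP40 and a heat shock target, was at 17.9 ± 0.482 and 16.6 ± 1.25 CPM and did not pass the test (adjusted p 0.394).

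The farnesylated class A J-proteins Dnaja1 and Dnaja2, which feed clients to HSP70, showed small falls. Dnaja2 went from 159 ± 7.93 to 133 ± 1.01 CPM (log2 change -0.26, SE 0.072, adjusted p 0.00853) and Dnaja1 from 93.1 ± 5.23 to 78.8 ± 6.49 CPM (log2 change -0.24, SE 0.080, adjusted p 0.0231). Both values turned sign with total counts as scaling (0.18 and 0.20), where the median of all genes was 0.45. With the atrial covariate the log2 changes were -0.25 and -0.24, close to those above, but did not pass (adjusted p 0.0820 and 0.128). The call of Dnaja2 was not lost without any single library, and that of Dnaja1 was lost without Control 1, Control 3, AKG 2 or AKG 3 (adjusted p 0.0542 to 0.107). Dnaja1 passed as higher with both FPKM fits (0.24 and 0.25, adjusted p 0.0230 and 0.0234), where the medians of all genes were 0.38 and 0.44. Of the windows of Dnaja1, 26.2% occurred in 4 other genes. Dnajc7, which binds both HSP70 and HSP90, was at 123 ± 6.71 and 126 ± 6.18 CPM (adjusted p 0.656).

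**Figure D2:**
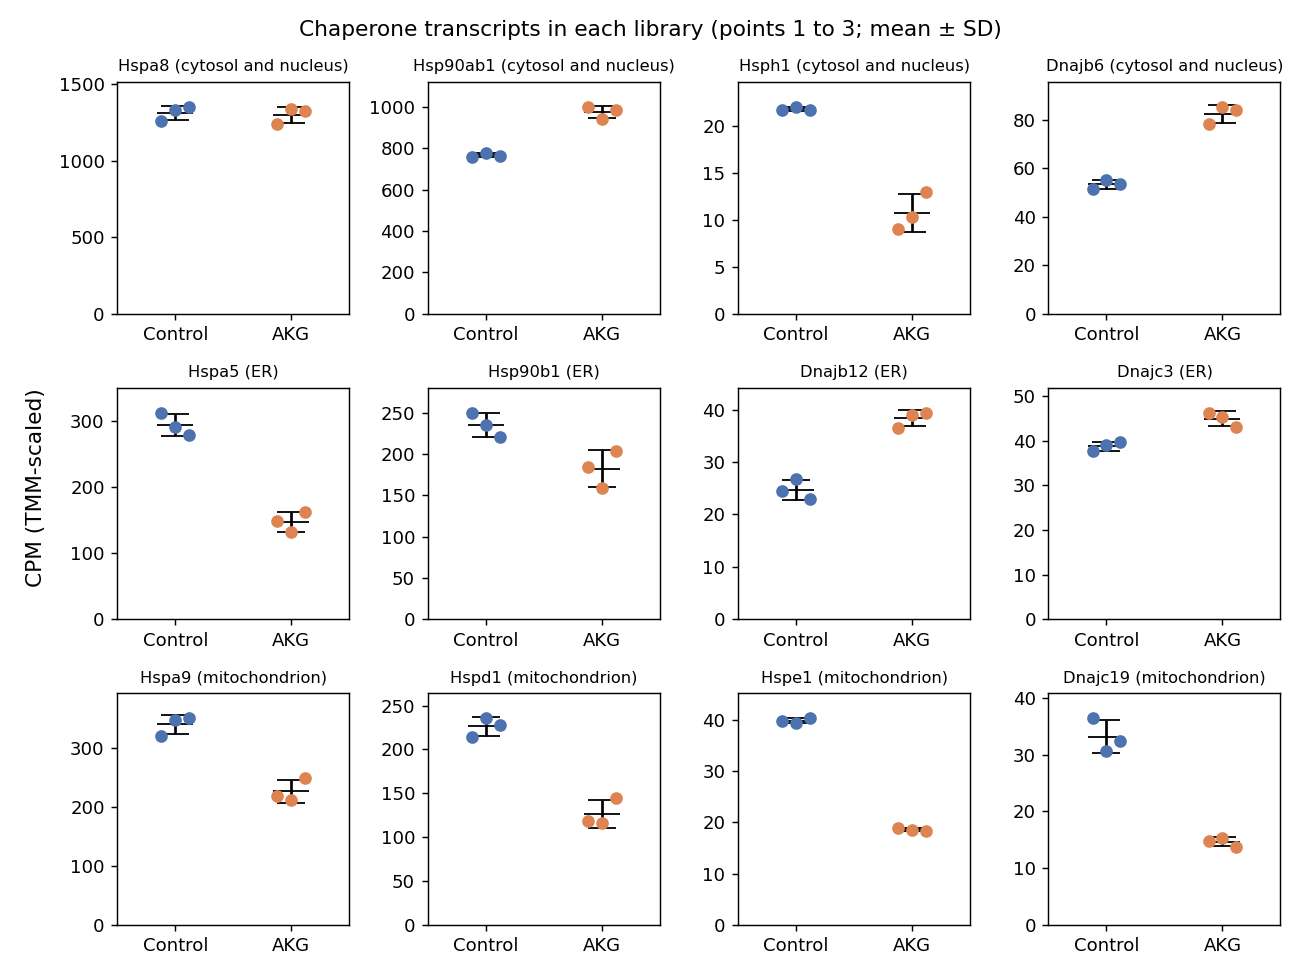
CPM (TMM-scaled, vertical axis from 0) of 12 members in the 3 Control and 3 AKG libraries, with the mean and SD as black bars; rows are cytosolic, ER and mitochondrial members. Hspa8 overlaps between groups, Hsp90ab1, Dnajb6, Dnajb12 and Dnajc3 lie higher after AKG, and the other 7 lie lower; with total counts as scaling Hspa8 and Hsp90b1 would have positive changes of 0.43 and 0.08 on the log2 scale.

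In the ER, the central HSP70 fell. Hspa5 was at 313, 291 and 280 CPM in Control and at 148, 132 and 162 CPM after AKG, a 1.99-fold decrease with a wide gap between the groups (log2 change -0.99, SE 0.089, adjusted p 1.16e-06). Hsp90b1 (GRP94), the HSP90 of the ER lumen, was at 250, 235 and 221 CPM and at 184, 159 and 204 CPM. The groups did not overlap, and the fall was smaller (log2 change -0.37, SE 0.094, adjusted p 0.00506). Its sign turned with total counts as scaling (0.08, adjusted p 0.555), whereas Hspa5 fell under each of the 20 alternatives tried. Hspa13, a microsomal HSP70 relative, was at 13.9, 12.5 and 14.5 CPM and at 18.6, 14.7 and 17.4 CPM. Its rise only just passed (log2 change 0.31, SE 0.12, adjusted p 0.0437) and was lost in 10 of 20 alternatives. These were the atrial covariate (0.13, adjusted p 0.564), the Y-linked covariate (0.0718), DESeq2 (0.0848), upper quartile scaling (0.0602), limma-voom (0.0514) and the fits without Control 1, Control 2, Control 3, AKG 1 or AKG 3 (adjusted p 0.0569 to 0.166).

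Among 4 named J-proteins of the ER lumen, Dnajc3 rose and the other 3 did not pass the test. Dnajc3, a co-chaperone of BiP that also restrains the kinase PERK, was at 37.7, 39.1 and 39.7 CPM in Control and at 46.3, 45.4 and 43.2 CPM after AKG. All AKG libraries lay above the Control libraries (log2 change 0.21, SE 0.078, adjusted p 0.0353), but the call was lost in 10 of 20 alternatives, among them leaving out any of Control 1, Control 2, Control 3, AKG 1 or AKG 2 (adjusted p 0.0671 to 0.118). Dnajb11, which holds clients for BiP, was at 44.0 ± 2.97 and 37.9 ± 3.82 CPM (adjusted p 0.0757) and passed as lower without AKG 3 (log2 change -0.27, adjusted p 0.0296), with the atrial covariate (-0.37, adjusted p 0.0345) and with upper quartile scaling (-0.24, adjusted p 0.0463). With total counts as scaling its sign turned (0.24). Dnajb9, an inducible ER J-protein, was at 19.6 ± 1.02 and 20.2 ± 1.31 CPM (adjusted p 0.706). Dnajc10, a disulfide reductase, was at 41.5 ± 0.860 and 41.7 ± 1.47 CPM (adjusted p 0.964). Of the 4 members whose promoters held an ER element, Hspa5 and Hsp90b1 thus fell, Dnajc3 rose and Dnajb11 did not pass the test.

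Dnajb12 and Dnajb14, related J-proteins anchored in the ER membrane, moved in opposite directions. Dnajb12 was at 24.6, 26.7 and 22.9 CPM in Control and at 36.6, 39.0 and 39.5 CPM after AKG, a 1.55-fold rise with no overlap (log2 change 0.63, SE 0.090, adjusted p 6.69e-05). Dnajb14 was at 28.2, 27.3 and 22.4 CPM and at 15.2, 14.4 and 14 CPM, a 1.79-fold decrease with no overlap (log2 change -0.84, SE 0.11, adjusted p 3.37e-05), and it missed the threshold on FPKM (log2 change -0.26 with a pseudocount of 1, adjusted p 0.0737). Dnajc1, which binds ribosomes at the ER membrane, fell by 0.29 on the log2 scale (SE 0.094, adjusted p 0.0204), from 32.9 ± 2.45 to 26.9 ± 1.94 CPM. That call was lost without Control 2, Control 3 or AKG 2 (adjusted p 0.0610 to 0.0900) and with the atrial covariate (log2 change -0.37, adjusted p 0.0527), and its sign turned with total counts as scaling (0.15).

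Both subunits of the mitochondrial chaperonin fell. Hspe1 was at 39.8, 39.4 and 40.4 CPM in Control and at 19, 18.6 and 18.4 CPM after AKG. Replicates of a group lay within about 1 CPM of each other, while the groups differed by a factor of 2.14 (log2 change -1.10, SE 0.084, adjusted p 2.89e-07). Hspd1, transcribed in the other direction from the promoter shown above, was at 215, 236 and 228 CPM and at 118, 116 and 145 CPM, with no overlap (log2 change -0.84, SE 0.093, adjusted p 7.03e-06). Of the windows of Hspd1, 33.7% occurred in other genes, mainly a pseudogene, against 3.15% for Hspe1. Not all members with a heat shock element moved this way, since Hsph1 also fell but Dnajb6 rose.

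Hspa9, the HSP70 of the matrix and of the import motor, was at 321, 348 and 350 CPM in Control and at 219, 212 and 249 CPM after AKG. The groups were apart, and the fall was 1.5-fold (log2 change -0.58, SE 0.085, adjusted p 7.83e-05). With total counts as scaling it was -0.14 (adjusted p 0.252). Dnaja3, the class A J-protein that works with Hspa9 in the matrix, was at 73.2, 81.2 and 82.3 CPM and at 32.9, 39.6 and 45.1 CPM, a 2.01-fold decrease (log2 change -1.01, SE 0.10, adjusted p 6.26e-06). Every AKG library of Dnaja3 lay well below the Control range.

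Both import motor J-proteins of the inner membrane fell. Dnajc19, an import motor subunit mutated in a dilated cardiomyopathy with ataxia, had the largest fall among the tested members. It was at 36.5, 30.7 and 32.5 CPM in Control and at 14.8, 15.3 and 13.8 CPM after AKG, a 2.27-fold decrease with no overlap (log2 change -1.18, SE 0.10, adjusted p 7.10e-07). Its relative Dnajc15, also linked to restraint of respiratory complex I, was at 61.3, 57.6 and 66.4 CPM and at 32.2, 37.5 and 30.2 CPM (log2 change -0.89, SE 0.094, adjusted p 5.03e-06). The groups of Dnajc15 were again apart.

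Of the remaining mitochondrial J-proteins, Dnajc11, a partner of the cristae-organising complex, fell from 52.7 ± 1.07 to 27.4 ± 2.54 CPM (log2 change -0.94, SE 0.088, adjusted p 1.59e-06). Dnajc30, which helps to keep complex I active, fell from 24.3 ± 3.55 to 16.9 ± 0.366 CPM (log2 change -0.52, SE 0.11, adjusted p 0.00167). This call was lost with total counts as scaling (log2 change -0.08, adjusted p 0.595), and 22.8% of the windows of Dnajc30 occurred in 1 other gene, Bud23. Dnajc4 fell by 0.73 on the log2 scale (SE 0.11, adjusted p 0.000116). Dnajc28, whose mitochondrial location is less certain, was the exception. It was at 12.8, 13.6 and 12.8 CPM in Control and at 13.4, 19.3 and 27.6 CPM after AKG, so that AKG 1 lay within the Control range and AKG 3 far above it. It did not pass the test (log2 change 0.62, SE 0.24, adjusted p 0.0699), but did in 7 of 20 alternatives, among them without AKG 1 (0.85, adjusted p 0.000229), with DESeq2 (adjusted p 0.00640) and with total counts as scaling (1.07, adjusted p 0.0113). Dnajc4 and Dnajc28 were chosen for naming after their values had been seen.

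Outside these compartments, Dnajc13, which acts in endosomal sorting, rose from 44.5 ± 0.967 to 53.7 ± 4.88 CPM (log2 change 0.27, SE 0.083, adjusted p 0.0142), a call lost without Control 1 or Control 3 (adjusted p 0.0553 and 0.0533) and with the atrial covariate (adjusted p 0.187). Dnajc5, the cysteine string protein of secretory vesicles, was at 82.2 ± 1.35 and 84.1 ± 5.63 CPM (adjusted p 0.731). Dnajc25 and Dnajc27 did not pass the test either (adjusted p 0.414 and 0.0630). Dnajc27 passed as lower with upper quartile scaling (log2 change -0.38, adjusted p 0.0464), and Dnajc25 passed as higher with both FPKM fits (0.45 and 0.54, adjusted p 0.00494 and 0.00496).

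Ratios between members within a library do not depend on scaling between libraries, and 5 of them were examined with two-sided exact permutation tests. With 3 libraries in each group, such a test cannot give a p under 0.1. The ratio of Hspa5 to Hspa8 counts was 0.248, 0.219 and 0.207 in Control and 0.120, 0.0992 and 0.123 after AKG (p 0.1, adjusted over 5 ratios 0.125). ER HSP70 was thus lower against cytosolic HSP70 by 0.98 on the log2 scale in a comparison with no overlap. The ratio of Hspa9 to Hspa8 was 0.254, 0.262 and 0.260 and 0.177, 0.159 and 0.188 (p 0.1, exact permutation test). That difference, -0.57 on the log2 scale, was again without overlap. Hspe1 to Hspd1 went from 0.177 ± 0.00906 to 0.149 ± 0.0194, and Hsp90aa1 to Hsp90ab1 from 0.146 ± 0.00351 to 0.126 ± 0.00685 (both p 0.1, exact permutation test, groups apart). The summed inducible pair to Hspa8 was 0.00475 ± 0.00181 and 0.00448 ± 0.00176 (exact permutation p 0.7), with overlapping groups.

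**Figure D3:**
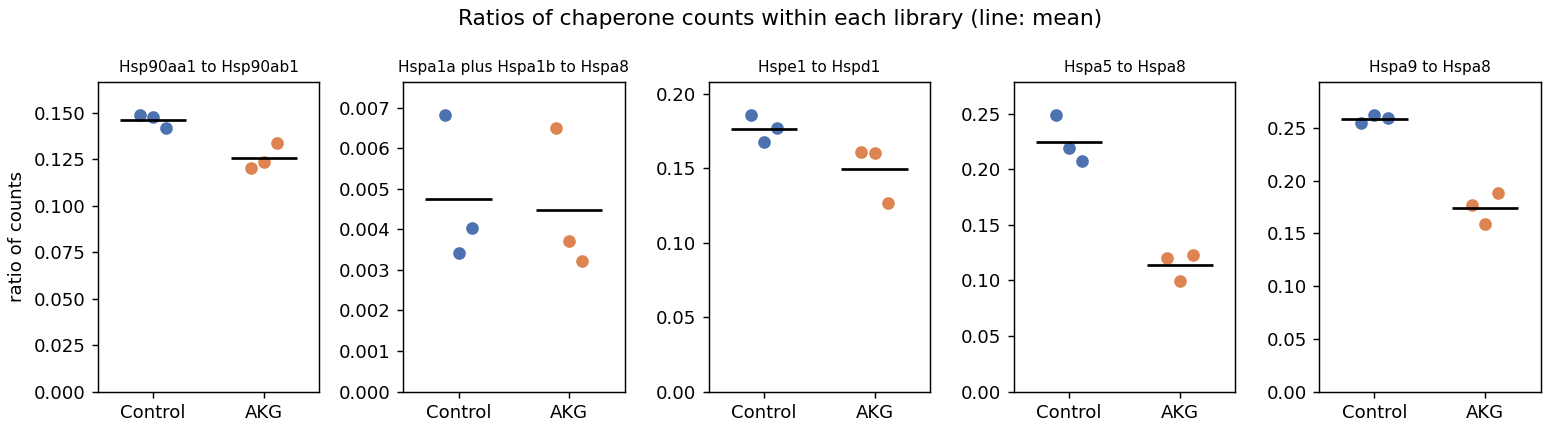
Count ratios of 5 pairs of members in each library (points; vertical axis is the ratio of counts, from 0; lines are group means of 3 libraries). The groups are apart for each pair but the inducible Hspa1a plus Hspa1b to Hspa8, where Control and AKG both lie low, with means of 0.00475 and 0.00448.

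Partners of these chaperones were read from lists drawn up beside the members. Of 4 tested heat shock factors and binding proteins (median log2 change -0.36), 2 fell (50%) and 0 rose, against 25.2% and 25.0% of all tested genes. Hsf1, the main activator of heat shock genes, fell from 33.3 ± 2.57 to 22.4 ± 2.21 CPM (log2 change -0.57, SE 0.10, adjusted p 0.000395), a call lost with total counts as scaling (-0.13, adjusted p 0.295). Hsf4 was near 1 CPM, at 1.37 ± 0.168 and 0.582 ± 0.124 CPM (adjusted p 0.0148), and its call was lost without Control 2 or AKG 3 (adjusted p 0.0619 and 0.0584) as well as with total counts as scaling (adjusted p 0.0868) and with the atrial covariate (log2 change -1.03, adjusted p 0.167). Hsf2 was at 18.4 ± 0.718 and 18.9 ± 0.384 CPM (adjusted p 0.768).

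Of 12 tested HSP70 exchange factors and regulators (median -0.36), 7 fell (58.3%) and 2 rose (16.7%), against 25.2% and 25.0% of all tested genes. Stub1 (CHIP), the ubiquitin ligase that docks on HSP70 and HSP90, fell by 0.65 on the log2 scale (adjusted p 8.71e-06). Grpel1, the exchange factor of Hspa9, went from 70.1 ± 2.16 to 44.6 ± 2.78 CPM (log2 change -0.65, adjusted p 1.15e-05). Hspbp1, an exchange factor of the cytosol, fell by 0.77 (adjusted p 2.65e-05). On FPKM with a pseudocount of 1, Grpel1 (-0.20, adjusted p 0.0617) and Hspbp1 (-0.19, adjusted p 0.117) did not pass. Hyou1, the large HSP70 relative that serves BiP, went from 34.7 ± 2.07 to 21.4 ± 5.01 CPM (log2 change -0.69, adjusted p 0.00214) and lost its call with total counts as scaling (adjusted p 0.225).

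Of 23 tested HSP90 co-chaperones (median -0.15), 9 fell (39.1%) and 3 rose (13%), against 25.2% and 25.0% of all tested genes. The immunophilin Fkbp4 was at 239, 247 and 262 CPM in Control and at 102, 101 and 99.1 CPM after AKG (log2 change -1.31, SE 0.074, adjusted p 2.56e-08), a change larger than that of any member. Stip1, which joins HSP70 to HSP90, went from 89.3 ± 4.88 to 50.3 ± 3.89 CPM, and Ahsa1, which speeds the HSP90 ATPase, from 67.7 ± 2.50 to 43.8 ± 1.69 CPM (log2 change -0.83 and -0.63, adjusted p 2.28e-06 and 1.27e-05). Ahsa1 lost its call with total counts as scaling (adjusted p 0.110). Fkbp5, the glucocorticoid-induced relative of Fkbp4, was at 6.87, 9.38 and 10.5 CPM and at 10.7, 36.5 and 71.0 CPM. AKG 1 lay next to the Control libraries and the others far above, and the test was not passed (log2 change 2.15, SE 0.81, adjusted p 0.0947). Fkbp5 passed in 5 of 20 alternatives, namely without AKG 1 (adjusted p 0.00970), with DESeq2 (0.00942), without robust dispersion (0.00543) and with both FPKM fits (0.00514 and 0.00398). The muscle myosin chaperone pair of Unc45b and Smyd1 and the kinase co-chaperone Cdc37 did not pass the test (adjusted p 0.823, 0.0935 and 0.384), although Smyd1 did without AKG 3 (log2 change -0.23, adjusted p 0.0189). With total counts as scaling these 3 passed as higher (0.47, 0.27 and 0.36), around or below the 0.45 of all genes.

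Of 8 tested subunits of the CCT chaperonin, which folds actin and tubulin, 2 fell and 2 rose (median -0.12), a share in each direction near the 25.2% and 25.0% of all tested genes. Cct3 went from 86.6 ± 3.51 to 59.8 ± 3.54 CPM and Cct4 from 95.6 ± 3.62 to 134 ± 1.90 CPM, so that subunits of a single complex moved in opposite directions (log2 change -0.53 and 0.49, adjusted p 5.33e-05 and 6.52e-05). The fall of Cct3 was lost with total counts as scaling (adjusted p 0.387). Of 6 prefoldin subunits, which hand actin and tubulin to CCT, 3 fell (50%) and 1 rose (16.7%), with a median of -0.48. Pfdn6, Pfdn1 and Pfdn2 fell, and Vbp1, chosen for naming after its value had been seen, rose. The falls of Pfdn1 and Pfdn2 were lost with total counts as scaling (adjusted p 0.630 and 0.921). That of Pfdn6 missed the threshold with both FPKM fits (-0.25 in each, adjusted p 0.0526 and 0.0534).

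Of 29 tested ER folding and stress genes (median -0.16), 14 fell (48.3%) and 6 rose (20.7%), against 25.2% and 25.0% of all tested genes. That list holds the member Hspa5. Manf, an ER-resident BiP partner, fell by 1.0 on the log2 scale (adjusted p 5.61e-06), and Calr, the lectin chaperone calreticulin, went from 269 ± 19.9 to 155 ± 19 CPM (log2 change -0.80, adjusted p 1.59e-05). Sec63, a J-domain protein of the translocon that is not a member by the rule, rose by 0.52 (adjusted p 5.70e-05). Of 15 tested mitochondrial chaperones and proteases (median -0.39), 11 fell (73.3%) and 1 rose (6.67%), against the same shares of all tested genes. This list shares Grpel1 and Grpel2 with the HSP70 exchange factors and regulators. Clpp, the matrix protease, was at 44.9, 40.8 and 44.8 CPM in Control and at 22.6, 22.9 and 19.8 CPM after AKG (log2 change -1.0, SE 0.092, adjusted p 1.51e-06). Trap1, the mitochondrial HSP90, went from 136 ± 1.59 to 98.2 ± 3.09 CPM (log2 change -0.47, adjusted p 7.93e-05) and lost its call with total counts as scaling (adjusted p 0.811).

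**Figure D4:**
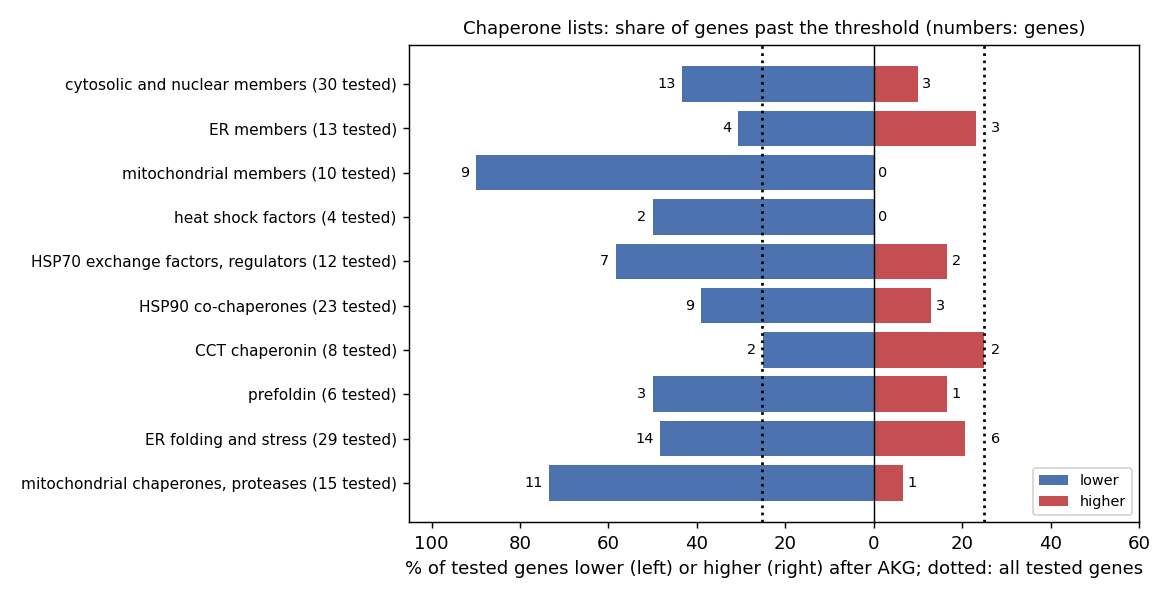
Share of tested genes of each list that fell (left, blue) or rose (right, red) after AKG at adjusted p under 0.05; numbers are genes, and dotted lines mark the 25.2% that fell and 25.0% that rose among all 13117 tested genes. Mitochondrial members (9 of 10) and mitochondrial chaperones and proteases (11 of 15) have the longest blue bars; with total counts as scaling 7 of the 10 mitochondrial members fell.

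Several marker lists moved alongside. For comparison, 25.0% of all tested genes rose and 25.2% fell. The falls of the mitochondrial members stood beside the fall of the heart muscle cell markers, whose summed CPM went down to 0.495 of that in Control. As a share of all counts these markers were 6.49 to 6.98% in Control and 4.33 to 4.79% after AKG. Summed macrophage markers were 144 to 221 CPM in Control and 94.4 to 122 CPM after AKG (0 of 10 rose, 5 fell). Smooth muscle and pericyte markers were 2328 to 2549 and 1412 to 1609 CPM (1 rose, 6 fell). As a share of all counts, macrophage markers overlapped between groups (0.0119 to 0.0185% in Control, 0.0105 to 0.0149% after AKG). Those of smooth muscle and pericytes did not (0.195 to 0.215% and 0.172 to 0.187%). Of 10 neutrophil markers 5 were tested, and all 5 rose. The sum over all 10 was 2.17 to 2.65 CPM in Control and 7.53 to 14.5 CPM after AKG, with Ly6g and Mpo at 0 counts in every library. Of 10 fibroblast markers 3 rose (30%) and 4 fell (40%). The 16 immediate early genes that cell isolation can induce summed to 410 to 461 CPM and 420 to 554 CPM, with 4 higher (25%) and 3 lower (18.8%). As a share of all counts their sums were 0.0358 to 0.0385% in Control and 0.0512 to 0.0644% after AKG. The number of mitochondrial members that fell was 9 with the atrial and with the Y-linked covariate, and the number of cytosolic members that fell was 5 with the atrial covariate. The part of the remaining lists in the chaperone results was not tested.

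**Figure D5:**
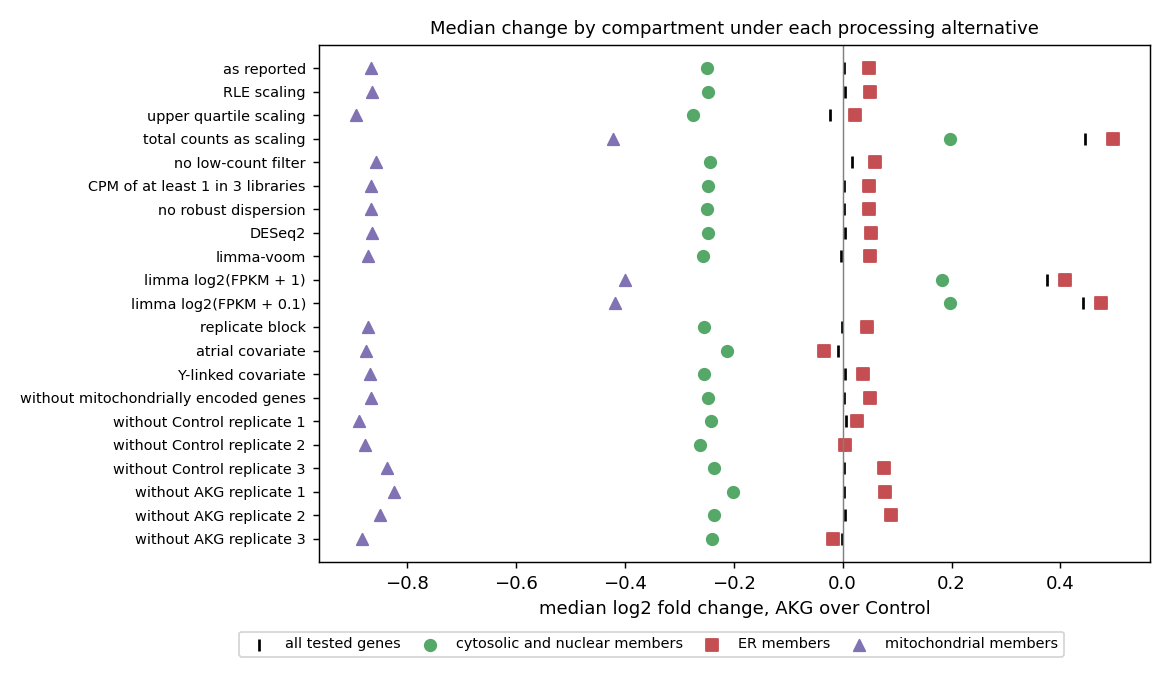
Median log2 fold change (horizontal axis) of the tested members of each compartment and of all tested genes, as reported and under 20 alternatives (vertical axis). Mitochondrial members stay at -0.89 to -0.40 throughout; with total counts as scaling or FPKM all medians move right together, and the cytosolic one then lies at 0.18 to 0.20, below the median of all genes.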

How the data were processed

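The authors deposited 1 table that holds, for each library, a gene's estimated counts and its FPKM. All count cells held whole numbers and 60 cells of 0 stood beside an FPKM above 0, so they were taken as rounded estimated counts. The deposited log2 fold changes, p-values and false discovery rates of the authors were not used for any result. Per the submitters' processing notes, HISAT2 2.1.0, RSEM 1.2.19 and DESeq2 1.20.0 were used, with roles, genome build, strand setting and read length not given in the sources used here.

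Counts were analysed with edgeR 4.0.16 in R 4.3.3: filterByExpr (minimum count 10, minimum total 15), TMM scaling and the quasi-likelihood test with robust dispersion. AKG was compared with Control in all 6 libraries, and p-values were adjusted over the 13117 tested genes (Benjamini-Hochberg). The script was tested on simulated data. Each SE was derived from the fold change and its F statistic. The 5 ratios of members were tested by exact permutation over libraries. Rows with no symbol (30) were left out. A count of 3, the floor, is 0.166 to 0.221 CPM. Alternatives were other scalings, filters and dispersion, DESeq2 1.42.0, limma 3.58.1 (voom, or log2 FPKM with 1 or 0.1 added), a replicate block, covariates and leaving out each library. Windows of 75 bases shared between genes were counted on the longest GENCODE M21 transcripts.

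Members, compartments and lists were chosen with earlier results of these data known. Named were a list of members given whatever they did, the 5 members of smallest p per compartment, 11 partner genes and up to 3 genes of smallest p per partner list.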

Additional observations from a re-analysis of the deposited data

How the results depend on the processing

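Of 42 named members, 15 kept their direction and their side of the threshold under all 20 alternatives (11 lower and 4 higher), as did 11 of 29 other named genes. The settings that moved most were total counts as scaling and the log2 FPKM fits with 1 or 0.1 added, under which the median of all genes was 0.45, 0.38 and 0.44. In that order, 21, 21 and 21 members were higher and 12, 11 and 11 lower. Cytosolic members were 10, 9 and 9 higher and 3, 3 and 3 lower, ER members 8, 8 and 8 higher and 2, 1 and 1 lower, and all genes 7431, 6732 and 6725 higher and 1196, 1068 and 1067 lower. With the atrial covariate 4 members, 1 ER member and 2169 genes were higher and 5 cytosolic members lower, and 1 ER member was higher with upper quartile scaling, DESeq2 or the Y-linked covariate. Dnajc28 made 1 mitochondrial member higher with total counts, without robust dispersion, with DESeq2, with either FPKM fit and with the replicate block. Leaving out each library gave 4 to 6 members higher, 7 to 11 cytosolic members lower, 1 to 2 ER and 0 to 1 mitochondrial members higher.

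Signs turned in the order of total counts, FPKM with 1 and FPKM with 0.1 for Hsp90b1 (0.079, 0.067, 0.067), Dnaja2 (0.18, 0.18, 0.19), Hspa4 (0.23, 0.22, 0.22), Hspa12b (0.16, 0.19, 0.20), Dnaja1 (0.20, 0.24, 0.25), Dnajc1 (0.15, 0.27, 0.31), Dnajc27 (0.090, 0.094, 0.14) and Dnajb11 (0.24, 0.22, 0.23). The same held for Dnajb1 (0.33, 0.28, 0.32), Dnajc25 (0.31, 0.45, 0.54), Hspa4l (0.36, 0.29, 0.34), Hspa8 (0.43, 0.35, 0.35), Cdc37 (0.36, 0.38, 0.39), Smyd1 (0.27, 0.26, 0.27) and Hsbp1 (0.29, 0.29, 0.29), and Hspa1a was 0.18 with total counts. Genes near 0 turned with the atrial covariate (Dnajc5 -0.050, Dnajb9 -0.0010, Hspa1b -0.036, Hspa8 0.038, Dnajc10 -0.034, Unc45b -0.032) and with upper quartile scaling (Dnajc10 -0.022, Unc45b -0.0033). Leaving out each library in turn gave -0.74 to 0.0072 for Hspa1a, -0.077 to 0.51 for Hspa1b, -0.045 to 0.026 for Hspa8, -0.013 to 0.082 for Dnajc5, -0.00016 to 0.089 for Dnajb9, -0.018 to 0.035 for Dnajc10 and -0.021 to 0.068 for Unc45b. The log2 difference in the ratio of Hspa1a plus Hspa1b to Hspa8 then ran from -0.39 to 0.20. The cause of these changes was not tested.

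The labels do not say whether replicate numbers pair the libraries. Deviations from the group means correlated at 0.161, -0.034 and 0.049 between same-numbered libraries. Between the other pairs of a Control and an AKG library they ran from -0.119 to 0.067. With 3 libraries in each group, these values cannot decide whether the libraries were paired. With the replicate block 7 members were higher and 25 lower, with 9 lower in the mitochondrion. For the ratios, exact tests that flip the signs of the paired differences gave p of 0.25 for 4 ratios and 0.75 for the inducible pair. With 3 pairs, 0.25 is the smallest p that such a test can give. Counts of a few CPM (Hspa1a, Hspa1b, Hsf4) limit what could be detected.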
